A study of Homo sapiens with 23 samples.

Results

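The genes described are SPRY1, SPRY2 and SPRY4 of the Sprouty family, the Sprouty-related genes SPRED1 and SPRED2, and ERRFI1, all intracellular inhibitors of receptor tyrosine kinase signaling. They were chosen by name: a probe set was taken where its only annotated gene symbol was one of these 6. Each of the 6 genes had exactly 1 such probe set among the 21448 tested, of which 17709 carry a single gene symbol.

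When a growth factor binds its receptor tyrosine kinase, adaptors such as GRB2 and the exchange factor SOS load Ras with GTP, and Ras starts the RAF, MEK and ERK kinase cascade. Sprouty proteins are made in response to ERK activity and act back on the cascade between the receptor and RAF, SPRED proteins carry the Ras GTPase-activating protein neurofibromin to the membrane, and ERRFI1 (also called MIG6) binds the kinase domain of the epidermal growth factor receptor and blocks it. In myeloid cells this route is fed by receptors such as FLT3, KIT and CSF1R, and inherited loss of SPRED1 causes Legius syndrome, a disorder of excess Ras signaling.

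RNA was measured on Clariom S HT arrays in HL-60 and OCI-AML3, established cell lines derived from acute myeloid leukemia (AML), the first promyelocytic and the second myelomonocytic with a mutated NPM1 gene. Cells were left untreated or given 40 µM CIGB-300, a synthetic peptide that carries a cell-penetrating sequence and was designed to block phosphorylation by protein kinase CK2, and were collected at 30 min or 3 h, which makes 8 groups of cell line, time and agent. Both lines were grown in the same serum-supplemented medium, and the untreated cells received no control peptide, so an effect of CK2 blockade and one of any peptide with the same cell-penetrating sequence cannot be told apart. There were 3 replicates per group. The exception was the untreated OCI-AML3 group of 30 min, with 2 arrays after the authors dropped replicate 1 in quality control, and the number of arrays limits the precision of every value. For the 3 untreated samples used as OCI-AML3 at 3 h, the title reads 30h and the time label 3h, so every comparison with them rests on that label. Values are log2 expression after RMA normalization, differences are on the same log2 scale with their standard error (SE), and means are given with the standard deviation (SD) over arrays. A gene is called, and is said to have risen or fallen, where limma gave p under 0.01 before adjustment together with a change of 1.5-fold or more, and every adjusted p is limma's Benjamini-Hochberg value over the 21448 probe sets.

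The array medians lay between 5.38 and 5.44 in HL-60 and between 5.52 and 5.60 in OCI-AML3, and replicates of a group correlated at r = 0.990 to 0.992. The 612 features that the table names as negative controls, taken here as a guide to background, had a median of 2.41 and a 95th percentile of 4.56. Of 4 granule protein markers listed for HL-60, MPO averaged 13.1 in HL-60 against 6.07 in OCI-AML3 and PRTN3 12.4 against 11.7, AZU1 was alike at 11.4 in both, and CTSG went against the list with 9.82 in HL-60 and 12.5 in OCI-AML3. Of the homeobox markers listed for OCI-AML3, MEIS1 averaged 3.53 in HL-60 against 7.78 in OCI-AML3 and PBX3 6.51 against 7.25. Of 14 measured markers of lymphoid, erythroid, epithelial and stromal cells, 8 stayed under that 95th percentile on all 23 arrays (CD3D, CD3G, MS4A1, AHSP, SLC4A1, EPCAM, CDH1 and KRT18). The other 6 passed it on some arrays (CD3E, ALAS2) or on all (KRT8, COL1A1, COL1A2 and CD79A, which averaged 10.7 in HL-60), and their part in the results was not tested. In arrays of a whole culture, fewer cells with a transcript and less RNA per cell cannot be told apart.

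SPRY2 was the only member called in any of the 4 comparisons of treated with time-matched untreated cells. It rose in OCI-AML3 cells after 30 min of CIGB-300, the single call among the 6 members there, where 1.07% of all probe sets were called. No member was called in HL-60 at 30 min, in HL-60 at 3 h or in OCI-AML3 at 3 h, where 0.877%, 3.87% and 1.6% of all probe sets were called, respectively. The median difference of the 6 members was 0.11 in HL-60 at 30 min, 0.05 in HL-60 at 3 h, 0.26 in OCI-AML3 at 30 min and 0.15 in OCI-AML3 at 3 h, beside medians of all probe sets of -0.01, -0.03, -0.004 and 0.0007. Of the 6 members, 3 (SPRY1, SPRY4 and ERRFI1) were called between untreated HL-60 and OCI-AML3 cells, where 24.9% of all probe sets were.

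**Figure D1:**
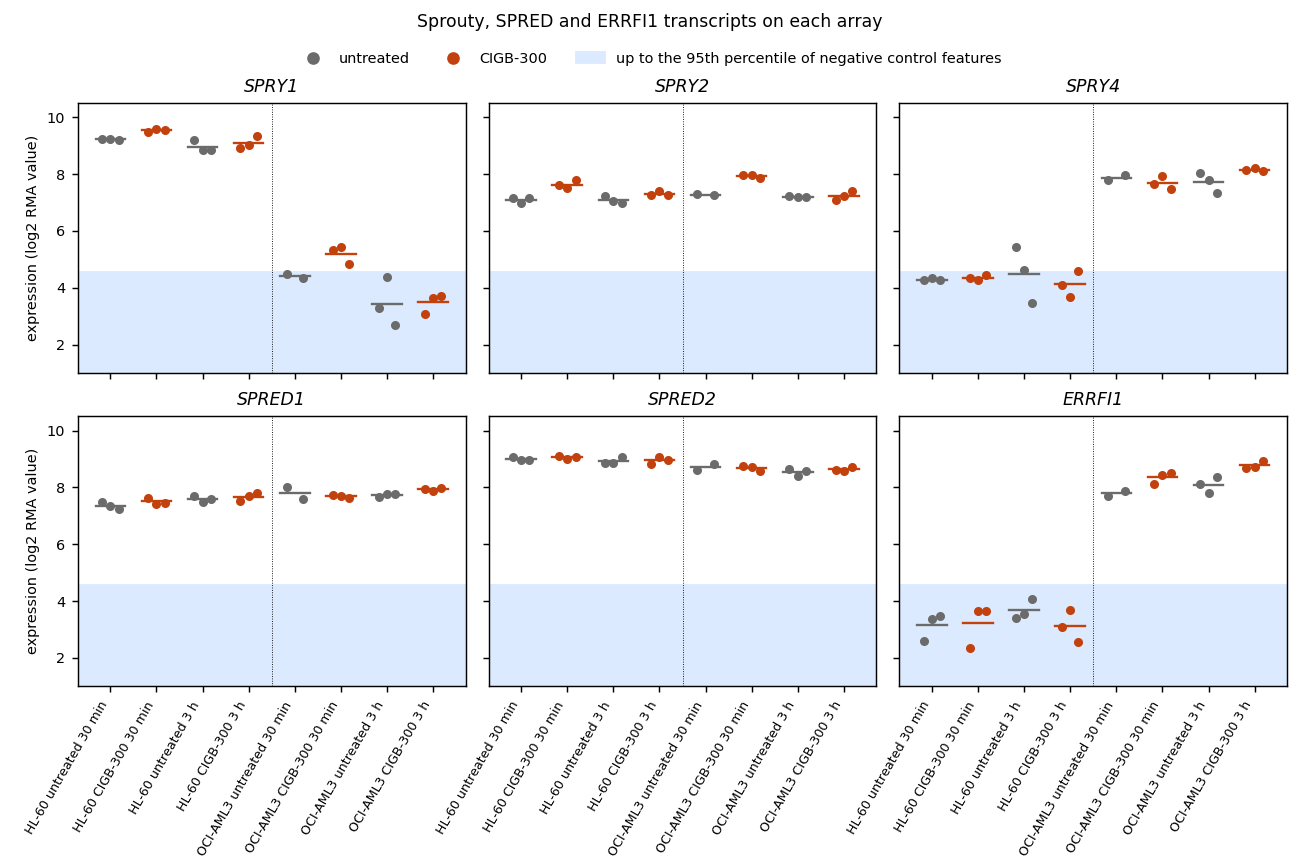
Expression (log2 RMA value, vertical axis) of the 6 genes on each of the 23 arrays, by group (horizontal axis), with untreated arrays in grey, CIGB-300 arrays in red, group means as bars, and the range up to the 95th percentile of negative control features (4.56) shaded. SPRY1 stood high in HL-60 and within or near the shaded range in OCI-AML3, SPRY4 and ERRFI1 showed the opposite, and the other 3 genes lay above the shaded range on every array of both lines.

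The promoter windows shown next belong to the member that was called under treatment and to the 3 members that were called between the lines. They come from RefSeq on build GRCh38.p14, run from 250 bases before to 50 bases after an annotated transcription start, and are printed 5′ to 3′ on the gene's own strand. SPRY2 lies at chr13:80341077-80341376 on the minus strand, SPRY4 at chr5:142324198-142324497 on the minus strand, SPRY1 at chr4:123396545-123396844 on the plus strand and ERRFI1 at chr1:8026260-8026559 on the minus strand. Capitals mark matches on either strand to the letters GCGNGGGCG, which early growth response (EGR) proteins bind, or TGACG, the core of the cyclic AMP response element.
SPRY2: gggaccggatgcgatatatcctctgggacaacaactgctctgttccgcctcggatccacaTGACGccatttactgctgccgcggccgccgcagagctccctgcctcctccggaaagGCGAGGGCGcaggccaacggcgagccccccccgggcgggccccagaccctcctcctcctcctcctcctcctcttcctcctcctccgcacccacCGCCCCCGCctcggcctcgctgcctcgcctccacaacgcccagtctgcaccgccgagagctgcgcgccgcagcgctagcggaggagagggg
SPRY4: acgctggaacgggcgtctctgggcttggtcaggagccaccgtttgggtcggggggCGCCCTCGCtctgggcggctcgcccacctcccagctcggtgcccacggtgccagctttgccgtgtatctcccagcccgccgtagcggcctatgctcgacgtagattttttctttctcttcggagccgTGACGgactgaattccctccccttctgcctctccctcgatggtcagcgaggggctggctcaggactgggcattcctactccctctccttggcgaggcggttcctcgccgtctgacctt
SPRY1: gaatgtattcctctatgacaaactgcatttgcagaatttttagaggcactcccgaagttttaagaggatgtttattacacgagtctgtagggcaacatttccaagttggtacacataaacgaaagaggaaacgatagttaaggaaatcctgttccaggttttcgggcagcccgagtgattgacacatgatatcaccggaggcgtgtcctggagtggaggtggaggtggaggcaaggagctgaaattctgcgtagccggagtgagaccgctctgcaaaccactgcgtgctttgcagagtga
ERRFI1: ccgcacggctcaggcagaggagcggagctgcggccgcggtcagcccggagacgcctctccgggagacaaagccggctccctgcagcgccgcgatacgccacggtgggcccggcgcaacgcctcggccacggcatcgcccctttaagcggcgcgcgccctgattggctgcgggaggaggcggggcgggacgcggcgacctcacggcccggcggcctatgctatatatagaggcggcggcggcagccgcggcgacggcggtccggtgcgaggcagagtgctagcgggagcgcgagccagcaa

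In the SPRY2 window shown, the EGR letters matched at -134 to -126 and at -41 to -33 relative to its start. TGACG matched there at -190 to -186. SPRY2 has other annotated starts, and their windows matched neither the EGR letters nor TGACG. The SPRY4 window held one match of each, at -195 to -187 and at -68 to -64. The windows of SPRY1 and ERRFI1 shown held neither, although a second annotated start of SPRY1 had an EGR match at -28 to -20 and a match to the ETS letters CCGGAAG at -67 to -61. Over all 35116 RefSeq windows of the same length, GCGNGGGCG was found in 9.43%, TGACG in 24.6% and CCGGAAG in 10.3%. The same search covered the full element TGACGTCA, which contains TGACG and was found in 1.85%, the AP-1 letters TGANTCA in 7.71%, TATAAA in 11.5%, CACGTG in 7.26% and GGGCGG in 45.0%, the last of which overlapped the EGR match nearest the SPRY2 start. It also covered the CArG box, found in 1.29%, and the NF-kB site, found in 5.91%, and none of the 10 windows annotated for the 6 genes matched either. In SPRED2, which was not called, TGACG matched at 30 to 34 in the window of its first start. At its second start TGANTCA matched at -6 to 0 and at 34 to 40, and TATAAA at -31 to -26. The SPRY2 window shown is 71.0% G and C, and rates in windows of like composition were not computed. These matches are descriptions of letters and not of bound factors.

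SPRY2, a Sprouty that binds GRB2 and the ubiquitin ligase CBL, was measured well above the negative controls in both lines. In OCI-AML3 cells given CIGB-300 for 30 min it read 7.98, 7.98 and 7.88, and in the 2 untreated arrays of that time 7.29 and 7.26. All 3 treated arrays lay above both untreated ones. The difference was 0.67 ± 0.11 (SE), a 1.59-fold rise, with a 95% interval of 0.44 to 0.90 and an adjusted p of 0.00871. The call held when any one of these 5 arrays was left out, with differences of 0.65 to 0.70, although the adjusted p was then between 0.0241 and 0.128.

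In HL-60 cells at 30 min, SPRY2 read 7.60, 7.52 and 7.78 with CIGB-300 and 7.17, 6.97 and 7.16 without. The groups did not overlap. The difference of 0.53 ± 0.098 (95% interval 0.33 to 0.74) had an adjusted p of 0.0143 and corresponds to 1.45-fold, which is under the fold limit, so SPRY2 was not called in this comparison. With any one of these arrays left out, the difference was 0.46 to 0.59 and the adjusted p between 0.0194 and 0.114. Fitted on the HL-60 arrays alone, the same difference had an adjusted p of 0.139. The difference between the effects in the lines at 30 min, HL-60 minus OCI-AML3, was -0.13 with an interval of -0.44 to 0.18, and 0 of 6 members were called in this comparison, beside 1.39% of all probe sets.

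At 3 h SPRY2 was near its untreated level in OCI-AML3, with 7.10, 7.22 and 7.41 in treated and 7.24, 7.18 and 7.19 in untreated arrays, a difference of 0.04 (interval -0.17 to 0.24). In HL-60 the values were 7.26, 7.41 and 7.26 against 7.22, 7.04 and 6.97. These HL-60 groups did not overlap, and the difference was 0.24 ± 0.098 (interval 0.03 to 0.44) with an adjusted p of 0.203. The effect in OCI-AML3 was smaller at 3 h than at 30 min by -0.63 ± 0.15 (interval -0.94 to -0.32, adjusted p = 0.139), which met the call rule. SPRY2 was the 1 member of 6 called in that difference, where 2.18% of all probe sets were called, and without replicate 1 of the treated OCI-AML3 arrays at 3 h the value was -0.56 and the call was lost. In HL-60 the same difference between times was -0.30 (interval -0.59 to -0.005), and 0 of 6 members were called, beside 3.24% of all probe sets.

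By group mean, SPRY2 was highest in OCI-AML3 cells treated for 30 min (7.95 ± 0.060, SD, n = 3), followed by HL-60 cells treated for 30 min (7.63 ± 0.13, SD, n = 3) and by the 6 other groups, whose means spanned 7.07 to 7.31. The first group did not overlap the second, nor the second the third. Below them, only untreated OCI-AML3 cells at 3 h and untreated HL-60 cells at 30 min were neighbours in the order without overlap.

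SPRY1, a Sprouty induced by fibroblast growth factors in many tissues, was high in HL-60 and low in OCI-AML3. Untreated HL-60 arrays read 9.23, 9.22 and 9.21 at 30 min and 9.20, 8.85 and 8.85 at 3 h. Untreated OCI-AML3 arrays read 4.50 and 4.36 at 30 min and 3.29, 4.36 and 2.68 at 3 h. All 6 HL-60 values lay above all 5 OCI-AML3 values, none of which passed the 95th percentile of the negative controls. The difference, averaged over both times, was 5.16 ± 0.21 with an adjusted p of 1.3e-13. With OCI-AML3 arrays set no lower than that percentile, SPRY1 was at least 23.2-fold higher in HL-60.

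In OCI-AML3 at 30 min, SPRY1 read 5.32, 5.45 and 4.83 with CIGB-300, above both untreated arrays, and these were the only 3 of the 11 OCI-AML3 arrays above the 95th percentile of the negative controls. The difference was 0.77 ± 0.32 (interval 0.11 to 1.44) with an adjusted p of 0.662, and it was not called. In HL-60 at 30 min the treated arrays read 9.49, 9.60 and 9.57, again all above the untreated ones, with a difference of 0.33 ± 0.28 (interval -0.26 to 0.93). The SE comes from a spread of SPRY1 pooled over all 8 groups, which had SDs from 0.0092 in untreated HL-60 cells at 30 min to 0.85 in untreated OCI-AML3 cells at 3 h.

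At 3 h SPRY1 overlapped between treated and untreated cells in both lines, with 8.92, 9.03 and 9.34 in treated HL-60 and 3.09, 3.65 and 3.71 in treated OCI-AML3 arrays. The differences were 0.13 (interval -0.47 to 0.72) in HL-60 and 0.04 (interval -0.55 to 0.64) in OCI-AML3. Between untreated OCI-AML3 cells at 3 h and 30 min SPRY1 fell by 0.99 ± 0.32 (interval -1.65 to -0.32, adjusted p = 0.176), the 1 member of 6 called there, beside 2.01% of all probe sets, although the arrays of the 2 times overlapped at 4.36. None of these arrays passed the 95th percentile of the negative controls, so this fall lies within the range of background signal. Leaving out any of 4 of these 5 arrays, all but replicate 2 at 3 h, ended this call, with values between -0.61 and -1.06, and without replicate 2 at 3 h the value was -1.45. In untreated HL-60 cells the same difference was -0.25 (interval -0.85 to 0.34), and 0 of 6 members were called, beside 1.5% of all probe sets. The order of the SPRY1 means ran from treated HL-60 cells at 30 min (9.55) through the other HL-60 groups to treated OCI-AML3 cells at 30 min (5.20), untreated OCI-AML3 cells at 30 min (4.43) and the OCI-AML3 groups at 3 h (3.49 treated, 3.44 untreated), the last 2 of which overlapped.

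SPRY4, a Sprouty that also binds the kinase TESK1, showed the reverse order of lines. Untreated OCI-AML3 arrays read 7.79 and 7.95 at 30 min and 8.02, 7.81 and 7.33 at 3 h. Untreated HL-60 arrays read 4.27, 4.34 and 4.26 at 30 min and 5.43, 4.61 and 3.45 at 3 h. All OCI-AML3 values lay above all HL-60 values, of which 2 of 6 passed the 95th percentile of the negative controls. The difference, HL-60 minus OCI-AML3, was -3.40 ± 0.25 with an adjusted p of 6.0e-10, and with the HL-60 arrays set no lower than that percentile SPRY4 was at least 8.46-fold higher in OCI-AML3.

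Under CIGB-300, SPRY4 in OCI-AML3 read 7.66, 7.92 and 7.48 at 30 min and 8.14, 8.22 and 8.10 at 3 h. The 3 h arrays lay above all 3 untreated ones of that time, with a difference of 0.43 ± 0.33 (interval -0.26 to 1.12) that was not called, whereas the 30 min arrays overlapped the untreated ones (-0.18, interval -0.95 to 0.59). In HL-60 the treated arrays read 4.36, 4.26 and 4.46 at 30 min and 4.09, 3.66 and 4.60 at 3 h, overlapping the untreated arrays at both times. The HL-60 difference at 3 h was -0.38 (interval -1.07 to 0.31), and it turned on single untreated arrays: without replicate 3, the array at 3.45, it was -0.90 and met the call rule with an adjusted p of 0.0514, and without replicate 1, the array at 5.43, it was 0.086 with an adjusted p of 0.925. The 4 OCI-AML3 group means spanned 7.69 to 8.15 and the 4 HL-60 means 4.12 to 4.50, and within each line all neighbours in the order overlapped except treated OCI-AML3 cells at 3 h, which lay above the next group.

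ERRFI1, the inhibitor of the epidermal growth factor receptor, was likewise high in OCI-AML3 and low in HL-60. Untreated OCI-AML3 arrays read 7.69 and 7.88 at 30 min and 8.11, 7.79 and 8.35 at 3 h. Untreated HL-60 arrays read 2.61, 3.36 and 3.48 at 30 min and 3.41, 3.54 and 4.07 at 3 h. No HL-60 array, treated or untreated, passed the 95th percentile of the negative controls, and all 11 OCI-AML3 arrays did. The difference, HL-60 minus OCI-AML3, was -4.52 ± 0.24 with an adjusted p of 6.9e-12, and against that percentile ERRFI1 was at least 10.4-fold higher in OCI-AML3.

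In OCI-AML3 cells given CIGB-300, ERRFI1 read 8.12, 8.43 and 8.50 at 30 min and 8.69, 8.71 and 8.93 at 3 h. At both times every treated array lay above every untreated array of that time. The differences were 0.56 ± 0.36 (interval -0.19 to 1.32) at 30 min, where the adjusted p was 0.877, and 0.70 ± 0.32 (interval 0.02 to 1.37) at 3 h, where the adjusted p was 0.424, and neither was called. Fitted on the OCI-AML3 arrays alone, which leaves out the wider HL-60 spread near the negative controls, the same 3 h difference of 0.70 met the call rule with an adjusted p of 0.121, where the other settings gave up to 0.672.

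In HL-60, ERRFI1 read 2.34, 3.65 and 3.66 at 30 min and 3.09, 3.68 and 2.58 at 3 h with CIGB-300, values that overlapped the untreated ones and the negative controls. The difference between the effects in the lines at 3 h, HL-60 minus OCI-AML3, was -1.25 ± 0.46 (interval -2.21 to -0.30, adjusted p = 0.27) and was not called. The HL-60 part of it was -0.56 (interval -1.23 to 0.12), from arrays all under the 95th percentile of the negative controls. The same -1.25 met the call rule with the replicate numbers as a block (adjusted p = 0.197) and with trended and robust variances (adjusted p = 0.143). With array weights, -1.37 (adjusted p = 0.225) also met it. At 3 h 0 of 6 members were called for this difference, beside 2.98% of all probe sets. In the order of ERRFI1 means, treated OCI-AML3 cells at 3 h came first (8.78) without overlap with the next group, and the 4 HL-60 groups, from 3.12 to 3.67, all overlapped their neighbours.

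SPRED1, which ties neurofibromin to the membrane, varied little across the 8 groups. Its 12 HL-60 arrays had a lowest value of 7.23, a median of 7.52 and a highest value of 7.80, and its 11 OCI-AML3 arrays a lowest of 7.59, a median of 7.75 and a highest of 8.02. Treated arrays lay above untreated ones in OCI-AML3 at 3 h (7.93, 7.88 and 7.99 against 7.66, 7.76 and 7.75), a difference of 0.21 ± 0.11 (interval -0.02 to 0.44) that was not called. The other 3 treatment differences of SPRED1 were between -0.13 and 0.15, and every pair of neighbours in the order of its means overlapped.

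SPRED2, its close relative, had treatment differences in HL-60 of 0.05 (interval -0.14 to 0.25) at 30 min and 0.02 (interval -0.18 to 0.21) at 3 h. In OCI-AML3 they were -0.05 (interval -0.26 to 0.17) at 30 min and 0.09 (interval -0.11 to 0.29) at 3 h. These intervals all lie within the 1.5-fold limit of 0.58 either way. The arrays ranged from 8.84 to 9.12 in HL-60 and from 8.42 to 8.83 in OCI-AML3. Between untreated lines, SPRED2 differed by 0.34 ± 0.070 (adjusted p = 0.0005) and SPRED1 by -0.29 ± 0.082 (adjusted p = 0.00632), HL-60 minus OCI-AML3, which is 1.26-fold and 1.22-fold and under the fold limit. SPRY2 differed by -0.16 (interval -0.31 to -0.002, adjusted p = 0.0927).

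**Figure D2:**
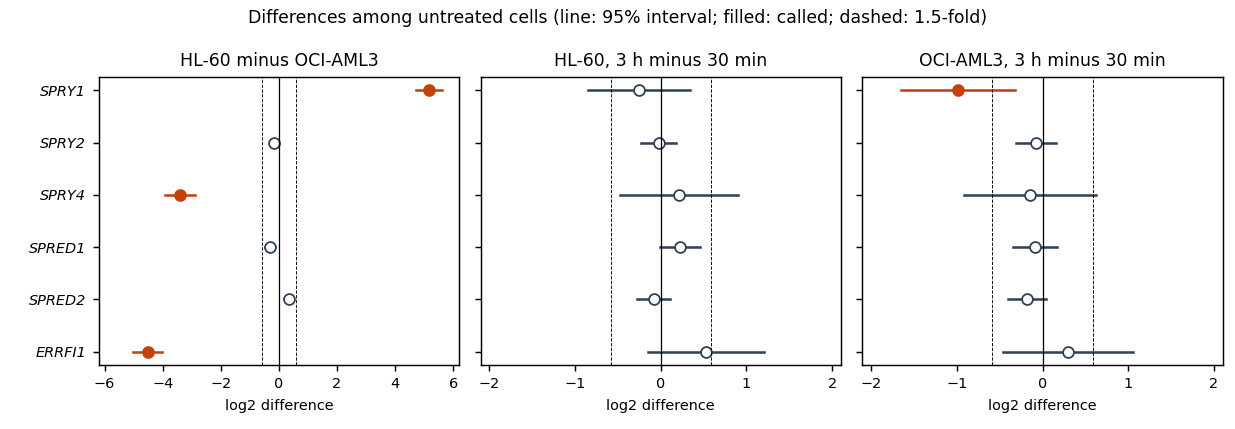
Log2 differences (horizontal axes) among untreated cells for the 6 genes (vertical axis): HL-60 minus OCI-AML3 averaged over both times, and 3 h minus 30 min in each line. Points are limma estimates, lines their 95% intervals, filled red points called genes and dashed lines the 1.5-fold limit, and the horizontal scale of the first panel is wider. SPRY1 at 5.16, SPRY4 at -3.40 and ERRFI1 at -4.52 stand far from the limit in the first panel.

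**Figure D3:**
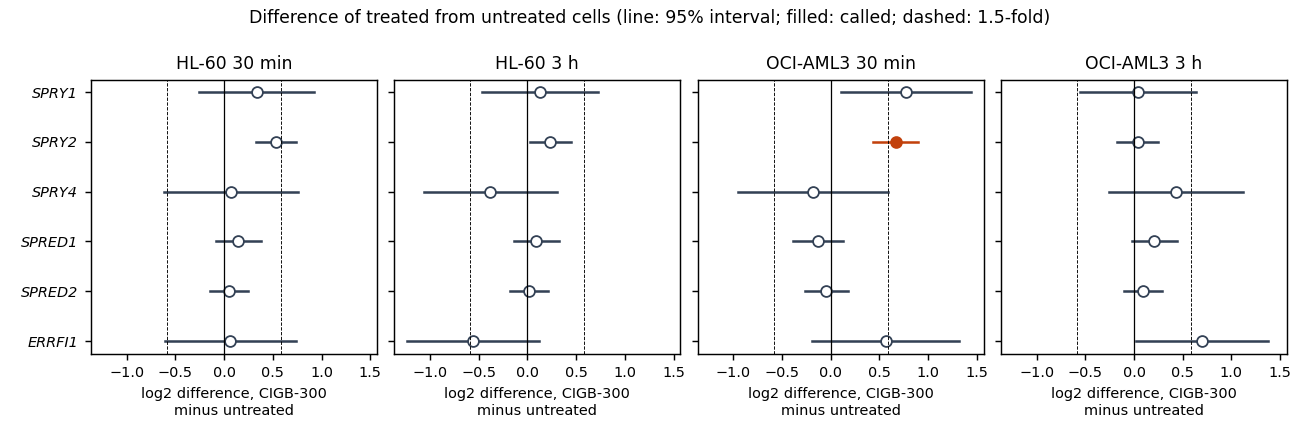
Log2 difference of CIGB-300 from untreated cells (horizontal axes) for the 6 genes (vertical axis) in the 4 comparisons, with the limma estimate, its 95% interval as a line, and dashed lines at the 1.5-fold limit. SPRY2 in OCI-AML3 at 30 min, at 0.67, is the only filled (called) point, and the intervals of SPRY1, SPRY4 and ERRFI1 are the widest.

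The remaining family members SPRY3 and SPRED3, which were not among the 6, had group means of 3.88 to 4.94 and of 2.50 to 4.19, largely within the range of the negative controls, and neither was called in any of the 4 treatment comparisons.

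The genes that the 6 inhibitors act on or answer to were read from lists of receptor ligands, receptors, adaptors, Ras and its kinases, Ras GTPase-activating proteins, binding partners, other feedback inhibitors, ERK-induced genes and ETS-family factors with CIC and SRF. The list of ERK-induced genes, which was chosen with results of these samples known, had the most calls in each of the 4 comparisons. Its name is a label only, since the arrays measure RNA and not the activity of ERK. Of its 17 measured genes, 6 rose in HL-60 at 30 min, 9 in HL-60 at 3 h, 7 in OCI-AML3 at 30 min and 6 in OCI-AML3 at 3 h, and none fell. The list medians were 0.26, 0.59, 0.29 and 0.21 in that order, beside medians of all probe sets between -0.03 and 0.0007.

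EGR1, EGR3, FOS and IER3, all immediate early genes, rose in all 4 comparisons. In HL-60, EGR3, a zinc finger factor, rose by 4.40 ± 0.23 at 30 min and by 5.38 ± 0.23 at 3 h, with adjusted p-values of 4.8e-10 and 1.2e-11. Its rises in OCI-AML3 were 2.70 ± 0.26 and 3.48 ± 0.23, with adjusted p-values of 1.1e-05 and 5.2e-08. EGR1, its relative, rose by 3.13 at 30 min and 2.77 at 3 h in HL-60, against 1.53 and 1.45 in OCI-AML3. IER3, whose protein is a substrate of ERK, rose by 1.14 at 30 min in both lines, and at 3 h by 3.32 in HL-60 and 1.96 in OCI-AML3. FOS, an AP-1 subunit, rose by 1.41 in HL-60 at 30 min and by 1.02 in OCI-AML3 at 3 h. Among the others, EGR4 rose by 1.19 in HL-60 at 3 h and LIF, a cytokine of the interleukin-6 family, by 1.39 in OCI-AML3 at 30 min. EGR1 and EGR3 also fell in untreated cells between 30 min and 3 h, EGR1 by 0.97 in HL-60 against 1.07 in OCI-AML3 and EGR3 by 2.30 against 2.88, so the control times differ for these genes.

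Of 19 measured ligands of receptor tyrosine kinases, 1 rose at 30 min in each line, and 5 in HL-60 and 4 in OCI-AML3 rose at 3 h, with no fall. The gene at 30 min was HBEGF, a ligand of the epidermal growth factor receptor that ERRFI1 inhibits, with 1.42 ± 0.20 in HL-60 (adjusted p = 0.000868) and 1.34 ± 0.23 in OCI-AML3 (adjusted p = 0.0112). After 3 h in HL-60 the largest rises were those of PDGFA (3.34), KITLG (2.17), CSF1 (1.24) and VEGFA (1.14), ligands of the PDGF receptors, KIT, the CSF1 receptor and the VEGF receptors. In OCI-AML3 at 3 h they were NRG1 (1.56), PDGFA (1.12), HGF (1.04) and HBEGF (0.60), the first of which, like KITLG, had a mean over all arrays near 3.1, within the range of the negative controls. Of 17 measured receptors, 2 fell in HL-60 at 3 h, MERTK (-1.38) and CSF1R (-1.29), and none was called in the other 3 comparisons. The list medians of ligands were 0.08, 0.14, 0.07 and 0.15, and those of receptors -0.07, -0.06, -0.07 and 0.03, in the order HL-60 30 min, HL-60 3 h, OCI-AML3 30 min and OCI-AML3 3 h.

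The next lists cover the steps between receptor and ERK, and their counts of calls were not tested against all probe sets. In HL-60, 0.877% of all probe sets were called at 30 min and 3.87% at 3 h. For OCI-AML3 these shares were 1.07% and 1.6%. None of 13 adaptors was called in the 4 treatment comparisons, with medians from -0.14 to 0.06. Of 11 genes from Ras to ERK, only the scaffold KSR2 was called, with a rise of 0.64 in HL-60 at 30 min (adjusted p = 0.441). Of 7 Ras GTPase-activating proteins, only RASAL2 was called, and it fell by 0.67 in HL-60 at 3 h. Of 10 binding partners, the ubiquitin ligase SIAH2, which targets Sprouty2 for degradation, rose by 0.85 ± 0.086 in HL-60 at 3 h, with an adjusted p of 2.4e-06. CAV1 rose by 0.72 in OCI-AML3 at 3 h from levels averaging 3.94, within the range of the negative controls. Of 10 ETS-family and related factors, ETS2 rose by 0.60 and ETS1 fell by 0.67 in HL-60 at 3 h. The medians of these 4 lists lay between -0.18 and 0.10 in all 4 comparisons.

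Of 15 other feedback inhibitors, only DUSP6, the phosphatase that removes the activating phosphates of ERK, was called in any treatment comparison. After 3 h it fell by 0.68 ± 0.13 in HL-60, with an adjusted p of 0.00426. In OCI-AML3 it rose over the same time by 0.98 ± 0.13, with an adjusted p of 0.000591. The medians of this list lay between -0.09 and 0.09. The difference between these effects, HL-60 minus OCI-AML3, was -1.65 ± 0.19 with an adjusted p of 4.8e-05.

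**Figure D4:**
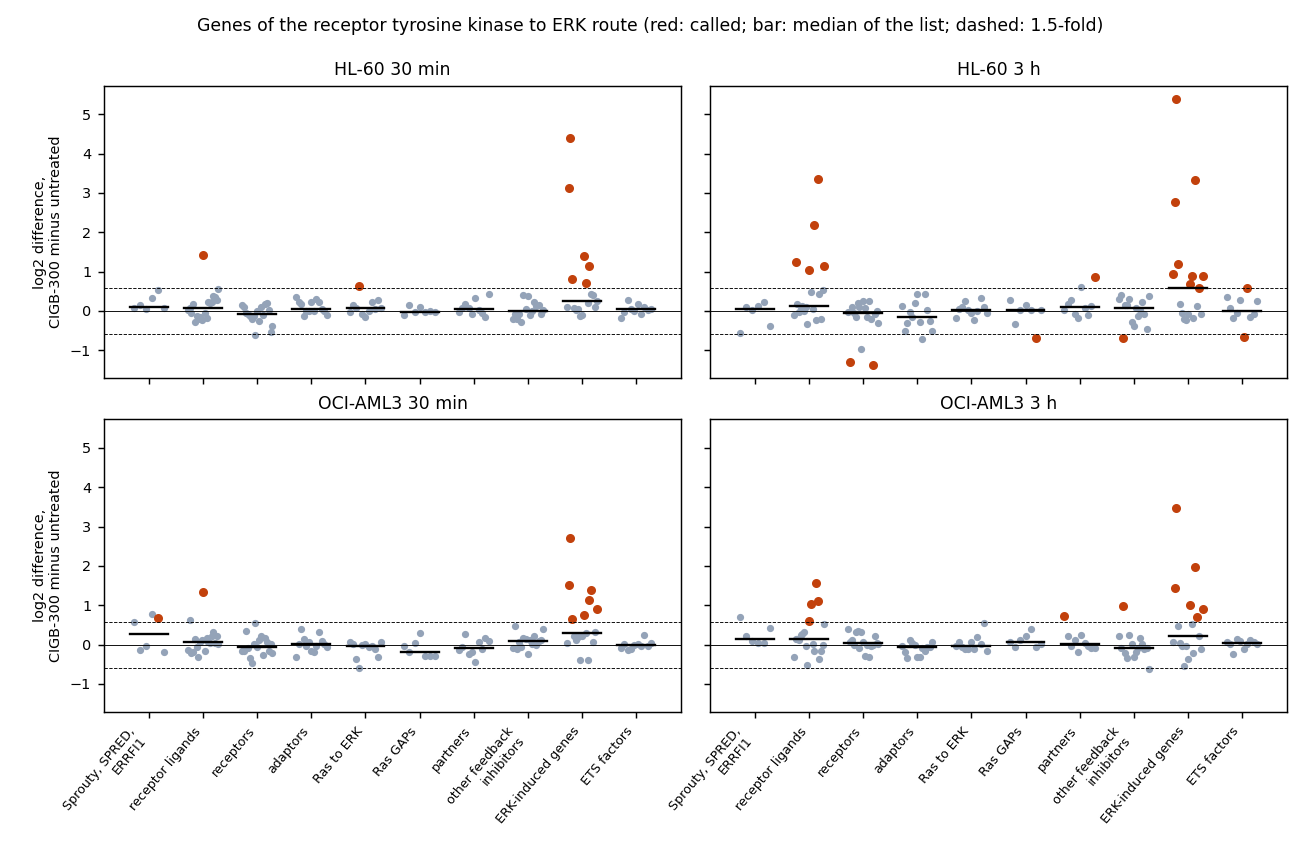
Log2 difference of CIGB-300 from untreated cells (vertical axes) for each gene of 10 lists along the route from receptor ligands to ERK-induced genes (horizontal axes), in the 4 comparisons. Red points are called genes, grey points the others, bars the list medians and dashed lines the 1.5-fold limit. Most red points belong to the ERK-induced genes, up to 5.38 for EGR3, and to the receptor ligands, with a single one (SPRY2) among the Sprouty, SPRED and ERRFI1 genes.

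The shape of each member's pattern was described by its 8 group means after the mean of the 4 groups of the same line was taken away, which removes the level difference between lines. These means spanned at least 1.5-fold for SPRY1 (1.76), SPRY2 (0.74) and ERRFI1 (0.99) and less for SPRY4 (0.49), SPRED1 (0.32) and SPRED2 (0.18). The span of SPRY1 comes from OCI-AML3, where only 3 of 11 arrays passed the 95th percentile of the negative controls, and none of the 12 HL-60 arrays of ERRFI1 passed it, so the patterns of these genes and the genes matched to them rest partly on signal near background. SPRY1 and SPRY2 had a Pearson r of 0.82 over the 8 centred means, both being highest in each line after 30 min of CIGB-300. SPRY4 and ERRFI1 had one of 0.67, which also rests partly on signal near background. SPRY4 passed the 95th percentile of the negative controls on 3 of 12 HL-60 arrays. Its span of 0.49 was smaller than the largest SD within one of its groups, 0.996. Among 3838 probe sets with the same minimum span, the genes most like SPRY2 were IER2 (r = 0.93), COQ10B (0.93) and ZFP36 (0.91), the first an immediate early gene and the last an mRNA decay factor. Those most like SPRY1 were KIR3DX1 (0.97), BDNF (0.95) and ZNF134 (0.95), and those most like ERRFI1 were AQP7 (0.97), LINC01126 (0.94) and CCDC18 (0.93). These r values rest on 8 points that share their arrays and were picked as the highest of many, and they are given as descriptions.

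**Figure D5:**
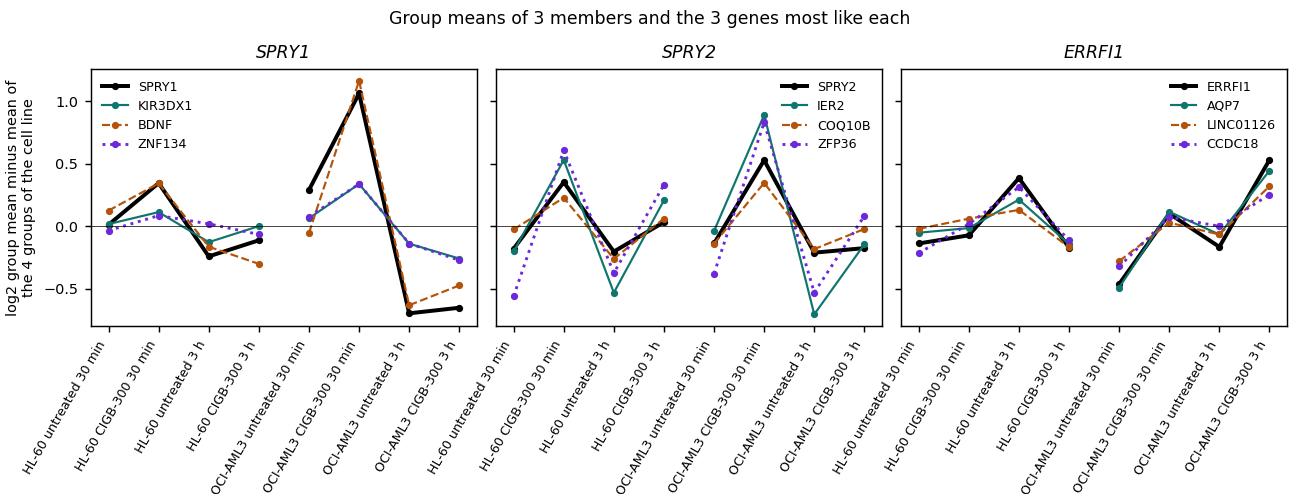
Group means on the log2 scale minus the mean of the 4 groups of the same cell line (vertical axis), over the 8 groups (horizontal axes), for SPRY1, SPRY2 and ERRFI1 (thick black lines) and the 3 genes most like each (thin lines). SPRY1 and SPRY2 peak after 30 min of CIGB-300 in each line, whereas ERRFI1 peaks after 3 h of CIGB-300 in OCI-AML3, and its HL-60 points are means of values at the level of the negative controls.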

How the data were processed

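Gene expression in HL-60 and OCI-AML3 was measured on 23 Clariom S HT arrays in 8 groups. The deposited values, on the log2 scale, were made by the authors with Robust Multi-array Average (background adjustment, quantile normalization, and a robust summary of the probes of a probe set) and were used as they are; the version of their software is not given in the sources used here. Quantile normalization removes shifts shared by all probe sets. The table has 27189 features, of which 5741 are controls and were not tested. The 612 negative controls among them served as a level of background, and 3739 of the 21448 tested probe sets have no gene symbol here.

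The fit used limma 3.58.1 (R 4.3.3) with a mean for each of the 8 groups, eBayes at its defaults and no replicate block, and 11 contrasts were taken from it. Following the study's methods, a call needs p under 0.01 before adjustment and a change of 1.5-fold or more, and Benjamini-Hochberg values were computed over all tested probe sets. P-values measure the spread between these replicates, which the sample titles give only as numbered replicates. Alternatives were a fit on 1 cell line, a replicate block, trended and robust variances, weighting of arrays, median centring or repeated quantile normalization, leaving out dim probe sets, other call thresholds, and leaving out each array in turn.

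The genes named are the 6 members, up to 4 called genes per list and treatment comparison with the largest differences, cell type markers, and the 3 genes most like each member whose centred group means span 1.5-fold. SPRY3 and SPRED3, and the untreated values of EGR1 and EGR3, were added after their values were seen. The members and lists were chosen with earlier results of these data known. The bound of a difference between lines sets the lower line at no less than the 95th percentile of negative controls on each array. Promoter letters were searched in RefSeq windows with Python 3.11.15 and pandas 2.3.3, and figures were drawn with matplotlib 3.10.9. Listed genes without a probe set of a single symbol were not analysed here. The calculation was tested on simulated data.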

Additional observations from a re-analysis of the deposited data

Results flagged for a closer look

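The effect of CIGB-300 on SPRY2 in OCI-AML3 cells differed between the times by the test of the difference itself: 3 h minus 30 min was -0.63 on the log2 scale (95% interval -0.94 to -0.32), with a rise of 0.67 at 30 min and a difference of 0.04 at 3 h. The treated arrays at 30 min, at 7.88 to 7.98, lay above every other OCI-AML3 array, while treated and untreated arrays overlapped at 3 h. The adjusted p from limma was 0.139, and the call met the unadjusted threshold only. Groups of 3 arrays are too small for a test of single outlying arrays, and none was run.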

How the results depend on the processing

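Over 1122 values of single members under other settings, 1060 kept their direction and their side of the call rule, 14 gained a call, 12 lost one and 36 changed sign. All sign changes were of differences that were not called, and for these the cause was not tested. Outside the left-out arrays they were ERRFI1 in the time difference of OCI-AML3 with the replicate block (-0.0097), SPRY1 in OCI-AML3 at 3 h with array weights (-0.12) and SPRED1 in the time difference of HL-60 with quantile normalization repeated over the tested probe sets (0.0030).

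The count of called members changed as follows. With the arrays of 1 cell line alone it was 1 in OCI-AML3 at 3 h (ERRFI1) and 0 in untreated OCI-AML3 cells over time. For the difference between lines at 3 h it was 1 (ERRFI1) with the replicate block, with trend and robust settings and with array weights, and array weights gave 0 in untreated OCI-AML3 cells over time. With an adjusted p under 0.05 in place of the call rule it was 1 in HL-60 at 30 min (SPRY2), 0 in the time difference of OCI-AML3, 0 in untreated OCI-AML3 cells over time and 5 between untreated lines. With a fold change of at least 2 it was 0 in OCI-AML3 at 30 min, 0 in the time difference of OCI-AML3 and 0 in untreated OCI-AML3 cells over time. Leaving out single arrays gave 0 to 1 called members in HL-60 at 30 min, in HL-60 at 3 h, in the line difference at 3 h, in the time difference of HL-60 and in untreated cells of each line over time, and 0 to 2 in the time difference of OCI-AML3. The array behind the HL-60 call at 3 h, and behind calls of SPRY4 in the line difference, the time difference of HL-60 and untreated HL-60 cells over time (-1.34, -0.97 and 0.73 without it), was replicate 3 of the untreated HL-60 cells at 3 h. Without replicate 2 of the treated HL-60 cells at 30 min, SPRY2 was called there at 0.59. Without replicate 2 of the treated HL-60 cells at 3 h, ERRFI1 was called in the line difference at -1.53, and without replicate 3 of the untreated OCI-AML3 cells at 3 h, SPRY1 was called in the time difference of OCI-AML3 at -1.11.

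Uncalled differences whose sign changed when an array was left out ranged as follows. In HL-60, ERRFI1 at 30 min ranged from -0.20 to 0.50, SPRED2 at 3 h from -0.037 to 0.086 and SPRY4 at 3 h from -0.90 to 0.086. In OCI-AML3, SPRED1 at 30 min ranged from -0.34 to 0.086, SPRED2 at 30 min from -0.15 to 0.057, SPRY1 at 3 h from -0.34 to 0.50 and SPRY2 at 3 h from -0.046 to 0.11. In the time difference of HL-60, SPRED1 ranged from -0.13 to 0.015, SPRED2 from -0.089 to 0.034 and SPRY4 from -0.97 to 0.017, and in that of OCI-AML3 ERRFI1 ranged from -0.014 to 0.27. In the line difference, SPRED2 at 30 min ranged from -0.0055 to 0.20 and SPRY1 at 3 h from -0.38 to 0.47. In untreated cells over time, SPRY2 ranged from -0.094 to 0.031 and SPRY4 from -0.26 to 0.73 in HL-60, and SPRED1 from -0.30 to 0.13 and SPRY4 from -0.30 to 0.045 in OCI-AML3.

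Replicate numbers showed no strong pairing of the samples: the deviations of same-numbered arrays of a line correlated at r = -0.04 to 0.08 over 33 pairs. For 13 of 23 arrays, the best correlation with another group of the line was with an array of the same number. Whether this count exceeds that of unpaired arrays was not tested. With the replicate block, SPRY2 in OCI-AML3 at 30 min was 0.66 (adjusted p = 0.0238, beside 0.00236 to 0.128 over all settings and left-out arrays). Over all probe sets, an adjusted p under 0.05 gave 39 calls in OCI-AML3 and 74 in HL-60 at 30 min in place of 230 and 188, 209 in place of 343 in OCI-AML3 and 1195 in place of 830 in HL-60 at 3 h, and 9949 in place of 5347 between untreated lines. It gave 16 in place of 299 (30 min) and 266 in place of 639 (3 h) for the line differences, 320 in place of 695 (HL-60) and 15 in place of 467 (OCI-AML3) for the time differences, and 196 in place of 321 (HL-60) and 167 in place of 431 (OCI-AML3) for untreated cells over time. A fold change of at least 2 left 32 to 2905 calls over the 11 comparisons in place of 188 to 5347. A filter that kept the 12044 probe sets whose highest group mean was above the median of all tested values gave 121 in each line at 30 min and 171 in the line difference at 30 min. All 6 members passed it, SPRY1 through its HL-60 means alone and SPRY4 and ERRFI1 through their OCI-AML3 means alone. Passing therefore says nothing about the line in which each of these 3 genes is low. Averaging several probe sets per gene was not run because each member has 1. Values of SPRY1 in OCI-AML3 and of SPRY4 and ERRFI1 in HL-60 are limited by signal near the negative controls.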
